A study of Saccharomyces cerevisiae with 180 samples.

Results

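Acetylation of histone H3 at lysine 18 (K18ac) was followed in budding yeast of the strain labelled set2, against the strain labelled bar1, in 3 antibody combinations that use no K4me3 antibody. The combinations were K18ac followed by Input, K18ac followed by K18ac again, and K18ac followed by K79me3. Input is taken here to mean that no second antibody followed the first, a reading of the labels rather than their wording. They gave 6 of the 180 libraries of the series, 1 for each strain and combination, and were chosen by their labels. Nucleosomes recovered with K18ac may also carry K4me3, since nothing in these combinations removes them. Both strains are listed in a yeast deletion library and were grown in rich YPD medium, and bar1 carries the title of wild type in its set. No further genotype is given in the labels. The only other strains used were eaf3 of the same set, and H3K36R (lysine 36 of H3 replaced by arginine) and its wild type WT H3, both from a histone mutation library.

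Set2 is the enzyme that methylates lysine 36 of histone H3 in the wake of elongating RNA polymerase II. Methylated lysine 36 is bound by Eaf3, a chromodomain subunit of the Rpd3S histone deacetylase, which then removes acetyl groups from transcribed coding regions. In wild-type yeast K18ac is richest around promoters and the first nucleosomes of genes. Loss of Set2 or of Rpd3S is known for raised histone acetylation inside genes and for transcription from promoters within coding regions. Ends of chromosomes carry silent chromatin with few acetyl marks.

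The 3 set2 libraries had 1090354 (K18ac-Input), 162766 (K18ac-K18ac) and 739446 (K18ac-K79me3) nucleosome reads, against 1665651, 165304 and 1170427 in bar1. K18ac-K18ac was the shallow pair, with no read on 15.0% of the 65032 nucleosomes in set2 and on 18.4% in bar1. The SET2 locus itself (YJL168C, chromosome X, 102227 to 104428) tested the labels, with 6, 0 and 0 reads in the set2 libraries and 288, 14 and 291 in those of bar1. In the last pair this was at least 61.3-fold lower in set2 when its 0 was set at a floor of 3 reads. NAM7 (YMR080C) had 224, 43 and 226 reads in set2 and 2, 0 and 0 in bar1, and was left out of all gene values. BAR1 was present in the strain named after its deletion, with 145, 28 and 78 reads in set2 and 235, 13 and 125 in bar1. There was no replicate of any library, so no test was possible and every interval below covers counting error only. The 3 combinations of a strain came from the same K18ac-first material and are no substitute for replicates. Values are shares of a library's reads, so a total gain or loss of K18ac could not be seen, and no H3 library of these strains was at hand to divide out nucleosome occupancy.

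K18ac reads were shifted from the start of genes to their bodies in set2. In K18ac-Input, the late zone, from 1000 bp after the start codon of genes of at least 1500 bp, held 63.5% of the reads on such genes in set2 and 54.1% in bar1. In K18ac-K18ac it held 67.3% in set2 and 51.6% in bar1, and in K18ac-K79me3 62.4% in set2 and 56.4% in bar1. The 5-prime zone, the first 500 bp, went the other way in all 3 combinations, with 17.4%, 15.9% and 17.3% in set2 against 25.5%, 30.3% and 22.2% in bar1.

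Relative to all reads of a library, late-zone K18ac was higher in set2 by log2 changes of 0.49 (95% interval 0.48 to 0.49), 0.83 (0.81 to 0.85) and 0.29 (0.28 to 0.30) in K18ac-Input, K18ac-K18ac and K18ac-K79me3. The middle zone, 500 to 1000 bp, was higher by 0.16, 0.35 and 0.08. In the 5-prime zone the changes were -0.30, -0.49 and -0.22. The 3 combinations gave the same order of the 3 zones and the same signs, and K18ac-K18ac gave the widest spread between them. On the log2 scale, late over 5-prime reads thus came to 1.87, 2.09 and 1.85 in set2 and 1.09, 0.77 and 1.35 in bar1, a difference of 0.79 (0.77 to 0.80), 1.32 (1.28 to 1.36) and 0.51 (0.49 to 0.52).

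The change turned sign close to 500 bp into the gene. In K18ac-Input a nucleosome in the first 250 bp had on average 14.3 reads per 1000000 reads of its library (CPM) in set2 and 18.6 in bar1. From 750 to 1000 bp the averages were 15.4 in set2 and 12.7 in bar1, and from 2750 to 3000 bp they were 17.6 in set2 and 11.8 in bar1. In set2 the level was lowest at 250 to 500 bp, at 13.5, and reached its highest, 18.1, at 2500 to 2750 bp, whereas in bar1 it declined over the first 1000 bp and was nearly flat after that. The log2 change ran from -0.37 in the first 250 bp through 0.03 at 500 to 750 bp to 0.57 at 2750 to 3000 bp. K18ac-K79me3, the combination with the smallest change, crossed at the same place, from -0.26 through 0.01 to 0.41.

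**Figure D1:**
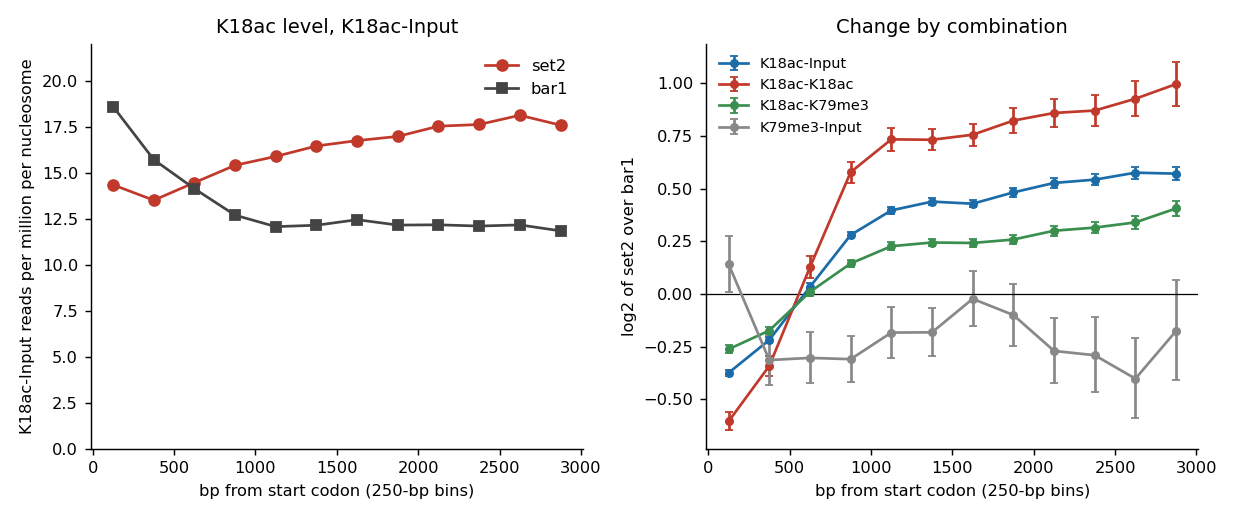
K18ac along genes of at least 1500 bp, by distance from the start codon in 250-bp bins. Left, mean K18ac-Input CPM per nucleosome in set2 (red circles) and bar1 (grey squares), which cross after 500 bp. Right, log2 of set2 over bar1 in the 3 K18ac combinations and in K79me3-Input, with 95% counting intervals: the K18ac lines start at -0.37, -0.60 and -0.26 and end at 0.57, 1.00 and 0.41, and the grey K79me3-Input line lies below 0 from 250 bp on.

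Toward the end of long genes the gain was smaller again. In genes of at least 3000 bp, the log2 change 1250 to 1500 bp before the stop codon was 0.69, 1.23 and 0.46 in the 3 combinations. Over the last 250 bp it was 0.34, 0.46 and 0.09. In K18ac-Input these last nucleosomes averaged 18.3 CPM in set2 and 14.5 in bar1, whereas 1250 to 1500 bp upstream they averaged 17.7 in set2 and 10.9 in bar1. The level in set2 was thus nearly flat over this stretch, and the level in bar1 rose toward the stop codon.

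Over whole coding regions the sign of the change went with gene length. Genes under 750 bp had log2 changes of -0.38, -0.57 and -0.33 over all their nucleosomes, and genes of 750 to 1500 bp had -0.16, -0.25 and -0.15. Genes of 1500 to 2500 bp had 0.10, 0.20 and 0.02, and genes of 4000 bp or more 0.50, 0.79 and 0.35. The first 500 bp alone differed much less with length: in K18ac-Input they were at -0.32 in genes of 1500 to 2500 bp and at -0.27 in genes of 4000 bp or more.

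Between genes K18ac was lower in set2, most of all at promoters. Nucleosomes whose centre lay in no protein-coding gene took 18.2%, 17.98% and 12.3% of the reads of K18ac-Input, K18ac-K18ac and K18ac-K79me3 in set2, and 22.3%, 24.5% and 14.4% in bar1. The log2 changes were -0.29 (-0.30 to -0.28), -0.44 (-0.47 to -0.42) and -0.23 (-0.24 to -0.22). Divergent regions, which hold promoters on both sides, had -0.39, -0.55 and -0.28, and tandem regions, with a promoter on 1 side, -0.30, -0.47 and -0.23. Convergent regions, which lie between a pair of gene ends and hold no promoter of their neighbours, had -0.04, -0.12 and -0.12. The 3 classes kept this order in each combination. Within divergent and tandem regions distance made little difference: nucleosomes 0 to 250 bp upstream of a start codon had -0.37, -0.59 and -0.28, and those 500 to 1000 bp upstream -0.33, -0.52 and -0.20. Nucleosomes within 20 kb of a chromosome end, genic or not, had -0.23, -0.24 and -0.28.

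**Figure D2:**
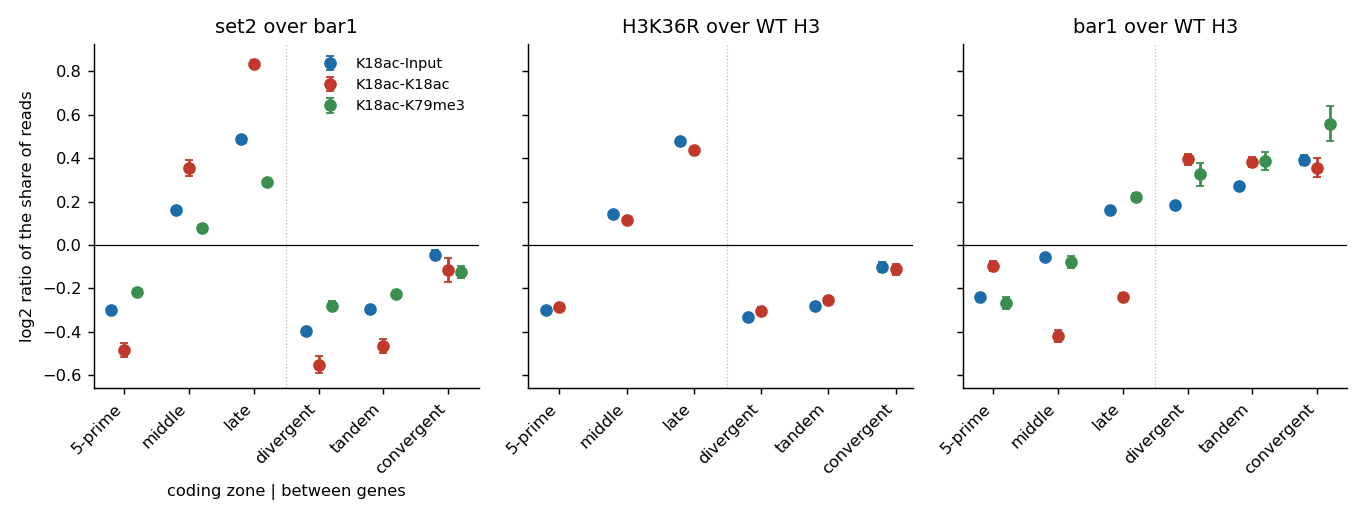
Log2 ratio of the share of reads in 3 coding zones and 3 classes of regions between genes, for set2 over bar1, H3K36R over WT H3 and bar1 over WT H3. Points are single library pairs with 95% counting intervals, coloured by combination. Set2 over bar1 and H3K36R over WT H3 both run from below 0 (5-prime) to above 0 (late) and stay below 0 between genes, while bar1 over WT H3 lies above 0 between genes.

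How large these changes were depended on which wild type stood as the reference, and the gap between the wild types was the only yardstick in place of replicates. Bar1 and WT H3 come from different sets and strain libraries, and bar1 had almost no NAM7 reads. The gap may therefore hold more than variation between wild types. Bar1 differed from WT H3 in the late to 5-prime log2 ratio by 0.40, -0.14 and 0.49 in K18ac-Input, K18ac-K18ac and K18ac-K79me3, with ratios of 1.09, 0.77 and 1.35 in bar1 and 0.69, 0.91 and 0.86 in WT H3. The K18ac-K79me3 difference of 0.51 (0.49 to 0.52) between set2 and bar1 was close to that gap of 0.49 (0.46 to 0.52), and their counting intervals overlap. The differences of 0.79 in K18ac-Input and 1.32 in K18ac-K18ac exceeded the gaps in their combinations. With WT H3 in place of bar1, the late to 5-prime difference of set2 kept its sign, at 1.18, 1.18 and 1.00. The WT H3 library of K18ac-K79me3 was shallow, with 85577 reads and no read on 33.5% of nucleosomes. Gene means and counts against WT H3 over all 3 combinations rest in part on it. The loss between genes did not hold up. Bar1 was itself above WT H3 there, by 0.26, 0.38 and 0.39, and set2 against WT H3 gave -0.03, -0.06 and 0.17.

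H3K36R, in which Set2 has no lysine 36 to methylate, differed from its own wild type in the same directions. In K18ac-Input the late share was 58.5% in H3K36R and 48.6% in WT H3, and the 5-prime share 21.2% in H3K36R and 30.2% in WT H3. The late to 5-prime difference was 0.78 (0.77 to 0.79) in K18ac-Input and 0.72 (0.71 to 0.74) in K18ac-K18ac, and the between-gene change was -0.28 and -0.25. None of these libraries was shared with the comparison of set2 and bar1. Eaf3 was set against the same bar1 libraries as set2, so its values are not independent of those of set2: its late to 5-prime difference was 0.70, 1.15 and 0.38, where that of set2 was 0.79, 1.32 and 0.51.

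Other libraries of set2 and bar1 were read the same way. The late to 5-prime difference was 1.24 in K18ac-K4me3 and 1.19 in K4me3-Input, the combinations with the K4me3 antibody. It was -0.12 (-0.22 to -0.02) in K79me3-Input, whose bar1 library had 10044 reads. In K36me3-Input it was -2.37, on 24149 reads in set2 and 348217 in bar1. Set2 is the enzyme that makes this mark, so the set2 reads may not report K36me3 at all.

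Single genes were then read in the late zone. Of 2247 genes of at least 1500 bp, 2246 had a late-zone nucleosome, and 989 had at least 30 reads over both strains in each of the 3 combinations. The shallow K18ac-K18ac pair set this limit, since K18ac-Input alone left all 2246 and K18ac-K79me3 alone left 2237. A gene can pass the limit through a gain in set2 itself, and the K18ac-Input median was 0.55 in the 989 genes and 0.47 in all 2246. The other medians of the 989 genes were 0.95 in K18ac-K18ac and 0.28 in K18ac-K79me3. Across genes the SD was 0.37, 0.85 and 0.35, beside a median counting error of 0.14, 0.45 and 0.15. All 3 log2 changes were above 0 in 700 genes and below 0 in 46.

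No single gene doubled throughout. At least 2-fold in all 3 combinations was reached by 0 of 989 genes (0%) upward and by 0 (0%) downward. In 1 combination alone, 32 genes (3.24%) were at least 2-fold higher in K18ac-Input, 466 (47.1%) in K18ac-K18ac and 2 (0.202%) in K18ac-K79me3. At least 1.5-fold higher in all 3 were 92 genes (9.3%), and at least 1.5-fold lower were 3 (0.303%). The same rule gave 7 of 988 genes (0.709%) higher in bar1 than in WT H3. H3K36R was read in K18ac-Input and K18ac-K18ac only, although the series also holds its K18ac-K79me3 library. Over these 2 combinations, a looser rule, 235 of 988 genes (23.8%) were at least 1.5-fold higher in H3K36R than in WT H3. The set2 count to set beside it is the 389 of 989 given next. The count of 92 of 989 became 389 of 989 without K18ac-K79me3, 184 of 2237 (8.23%) without K18ac-K18ac and 152 of 989 with size factors over nucleosomes. With WT H3 as the reference it was 345 of 2081 (16.6%), with 39 of the 92 among them, and at a minimum of 100 reads 25 of 116 (21.6%). Just inside the limit of 1.5-fold lay ERG7, MPT5 and KIP1, whose smallest log2 changes were 0.59 each, and just outside lay MLP2, YLR419W and PKH2, at 0.58 each.

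The 92 genes were described by measures from other libraries. Their median length was 3799.5 bp, where all 989 genes had 2937 bp. Their late-zone K36me3 in WT H3, as the log2 ratio to H3, had a median of 0.69, where all 989 had 0.46. In H3K36R against WT H3, K18ac-Input was above 0 in 92 of 92, where 92.3% of all genes were, and at least 1.5-fold higher in 60.9%, where 41.4% of all genes were. Within 20 kb of a chromosome end lay 0 of the 92, where 4.25% of all genes lay. Among them, 13 are listed in the gene table by locus name only, as are 91 of the 989.

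The gain grew with the K36me3 that a gene carries in wild type. The 989 genes were divided into 5 groups of near-equal size by late-zone K36me3 over H3 in WT H3, libraries outside the comparison. In the lowest group the median K18ac change was 0.18, 0.39 and -0.01 in the 3 combinations, and 1.01% of genes were at least 1.5-fold higher in all 3. In the highest group the medians were 0.67, 1.10 and 0.42, with 17.2% of genes. Most of the difference in the medians lay between the lowest group and the next, which was at 0.54, 0.90 and 0.23. In H3K36R against WT H3 the K18ac-Input medians were 0.23 in the lowest group and 0.61 in the highest. Groups by K79me3, another mark of transcribed genes, gave nearly the same run, with K18ac-Input medians of 0.19 in the lowest and 0.67 in the highest. These runs are descriptions across genes, which share libraries and are not replicates.

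**Figure D3:**
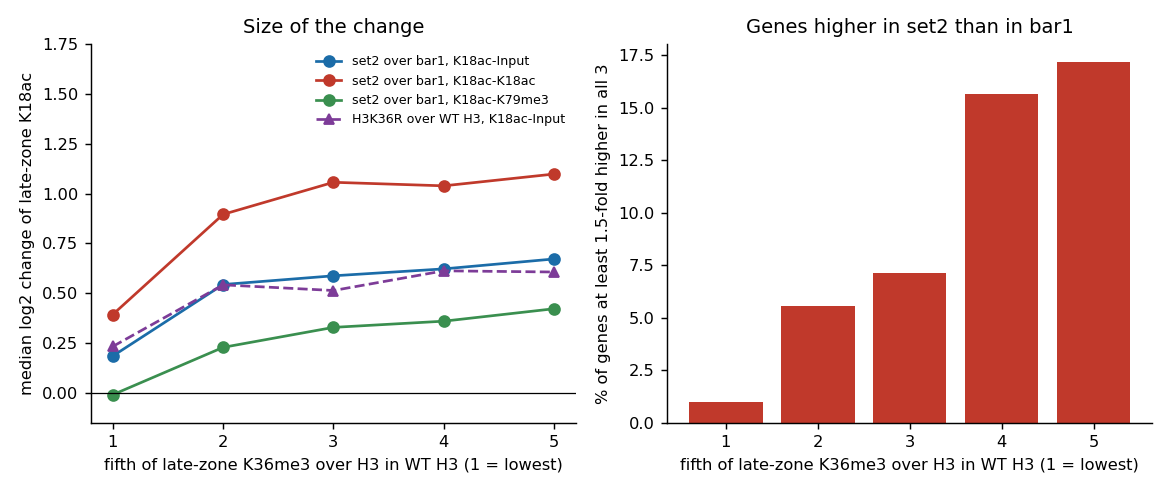
Late-zone K18ac of 989 genes in 5 groups by late-zone K36me3 over H3 in WT H3, from lowest to highest. Left, median log2 change in set2 over bar1 by combination and in H3K36R over WT H3 for K18ac-Input. Right, percent of genes at least 1.5-fold higher in set2 in all 3 combinations, 1.01% in the lowest group and 17.2% in the highest.

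Named by the size of their mean change among the 92, the leading gene was DAL81 (YIR023W, chromosome IX, 399777 to 402689), an activator of genes for nitrogen use. Its late zone had 201, 203 and 311 CPM in the set2 libraries K18ac-Input, K18ac-K18ac and K18ac-K79me3, against 122, 12.1 and 178 in bar1. Its log2 changes were 0.71 (0.43 to 1.00), 3.77 (2.10 to 7.17) and 0.81 (0.53 to 1.09). Set2 was higher in each pair, as the choice of the 92 genes required, and the 3.77 rests on 33 reads in set2 against 2 in bar1. MAM3 (YOL060C, chromosome XV, 214017 to 216137), needed for normal mitochondrial shape, had 151.3, 166 and 185 CPM in set2 and 58.8, 18.1 and 109 in bar1. KIC1 (YHR102W, chromosome VIII, 316572 to 319814), a kinase of cell-wall and polarity control, had 289, 258 and 326 in set2 and 121, 48.4 and 198 in bar1. In K18ac-Input these were log2 changes of 1.36 (0.99 to 1.74) for MAM3 and 1.26 (1.00 to 1.52) for KIC1, the only pair above 1 among the 12 genes named here.

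NUM1 (YDR150W, chromosome IV, 755628 to 763874), a cortical anchor for dynein during nuclear migration, is long and so had the most reads of the 12. Its late zone had 558, 614 and 875 CPM in set2, from 608, 100 and 647 reads, against 318, 181 and 459 in bar1, from 529, 30 and 537 reads. Its changes were 0.81 (0.64 to 0.98), 1.74 (1.16 to 2.40) and 0.93 (0.76 to 1.10), each with an interval clear of 0. NUM1 was chosen by these same values, so they are no separate support. FKS1 (YLR342W, chromosome XII, 809997 to 815627), the catalytic subunit of glucan synthase in the cell wall, had 189, 209 and 322 in set2 and 109, 48.4 and 191 in bar1. CHC1 (YGL206C, chromosome VII, 102543 to 107504), the clathrin heavy chain, had 304, 252 and 469 in set2 and 183, 42.3 and 278 in bar1. Set2 was above bar1 in every pair of both genes, as their choice required. Against WT H3, however, the mean log2 change of FKS1 was 0.35 in place of 1.20, and FKS1 was at 0.10 in H3K36R against WT H3 in K18ac-Input.

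The other 6 genes of this group were SAC6 (fimbrin, which bundles actin), PDR3 (an activator of drug resistance genes), MPT5 (a Pumilio-type mRNA-binding protein), ARP8 (an actin-related subunit of the INO80 remodeller), MIL1 and MET10 (sulfite reductase). Together with those above, the 12 had mean log2 changes over the 3 combinations between 1.14 (MET10 and MIL1) and 1.76 (DAL81). The shallow K18ac-K18ac pair weighed most in these means. For SAC6, PDR3, MPT5, ARP8 and MIL1 it gave 2.87, 2.27, 2.63, 2.38 and 2.03. K18ac-Input gave 0.87, 0.87, 0.59, 0.67 and 0.67 for these genes, and K18ac-K79me3 gave 0.69, 0.74, 0.64, 0.59 and 0.72. MET10 (YFR030W, chromosome VI, 213312 to 216419) had 331, 301 and 338 CPM in set2 and 174, 78.6 and 224 in bar1. With 5 reads added in place of 0.5 the mean of DAL81 was 1.33, and with WT H3 as the reference it was 1.04, so the order among these genes depends on both choices. Against WT H3 the means of MAM3, KIC1, PDR3 and MPT5 were 0.84, 0.73, 0.56 and 0.54, where against bar1 they were 1.71, 1.44, 1.29 and 1.29.

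**Figure D4:**
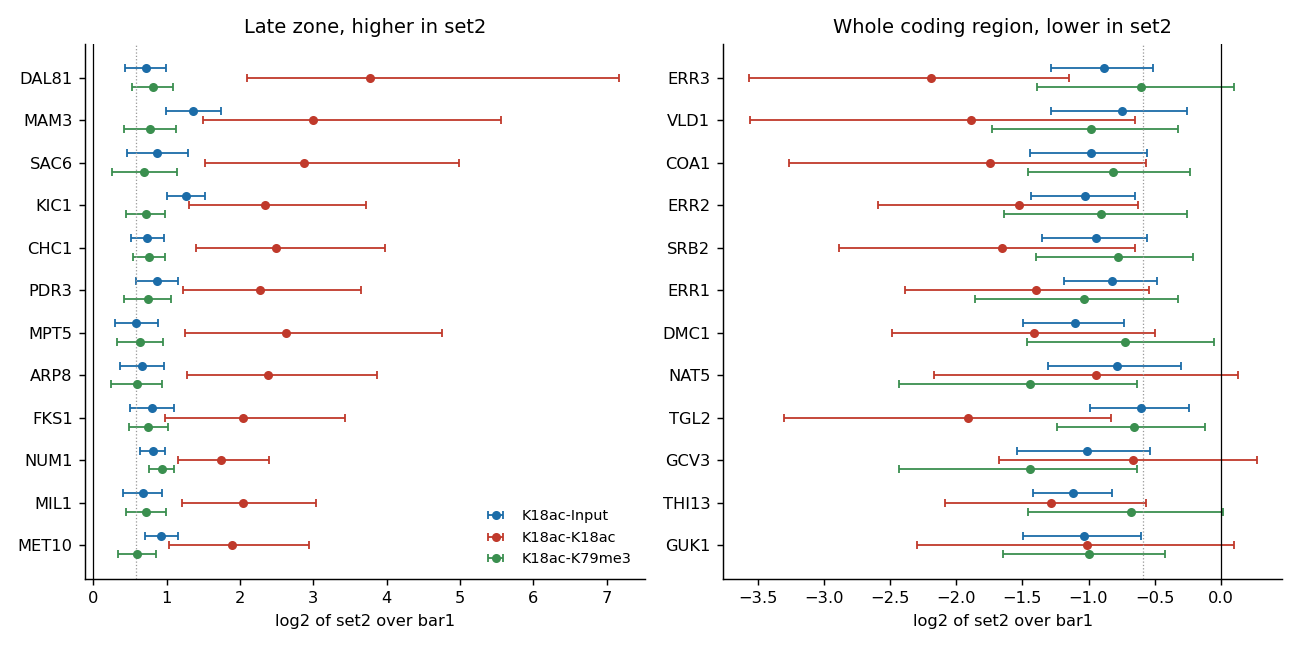
Log2 of set2 over bar1 for the 12 genes with the largest mean gain in the late zone (left) and the 12 with the largest mean loss over the whole coding region (right), by combination, with 95% counting intervals. Dotted lines mark 1.5-fold. The K18ac-K18ac points lie farthest from 0 in all genes on the left and have the widest intervals, and 12 of 12 K18ac-Input intervals on the right lie below 0. Genes in both panels were chosen by these same values.

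Genes with internal promoters that Set2 and Rpd3S are known to hold in check were listed by name. Of 12 genes, 11 were found and FLO8 was not among the protein-coding genes of the table. In the late zone 7 of the 11 passed the read minimum: 5 were above 0 in all 3 combinations and 0 were 1.5-fold higher in all 3, where 9.3% of all genes were. Their median of the mean change was 0.57, where that of all 989 genes was 0.62. Over the whole coding region all 11 passed, with a median of 0.36, where all 3447 genes had 0.03. All 11 are at least 1500 bp long, where 41.3% of the 3447 genes were under 1500 bp. The list was not set against genes of matched length. The differences between the list and all genes were not tested.

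FMP27 (YLR454W, chromosome XII, 1043998 to 1051884) had the most reads of the list. Its late zone had 639, 553 and 682 CPM in set2 and 345, 206 and 503 in bar1, with changes of 0.89 (0.73 to 1.05), 1.41 (0.84 to 2.04) and 0.44 (0.26 to 0.61). AVO1 (YOL078W, chromosome XV, 181682 to 185212), a subunit of TOR complex 2, had 307, 301 and 243 in set2 and 178, 109 and 251 in bar1. Its set2 values were higher in the first pair of combinations and level with bar1 in K18ac-K79me3, at -0.04 (-0.32 to 0.23). LCB5 (YLR260W, chromosome XII, 665844 to 667907), a sphingoid base kinase, had 140.3, 166 and 129.8 in set2 and 84.7, 36.3 and 119.6 in bar1. Its K18ac-K79me3 change of 0.12 (-0.27 to 0.50) had an interval that includes 0.

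STE11 (YLR362W, chromosome XII, 849866 to 852019), a kinase of the mating pathway and a much used test gene for such promoters, did not pass the read minimum. Its late zone had 84, 24 and 66 reads in set2 and 97, 1 and 82 in bar1. The K18ac-Input change was 0.40 (-0.04 to 0.84), K18ac-K18ac gave 4.05 (1.99 to 9.97) on the 24 reads against 1, and K18ac-K79me3 gave 0.35 (-0.14 to 0.83). The K18ac-K18ac interval alone excludes 0. The other genes were SMC3 (cohesin), PCA1 (a cadmium-exporting ATPase), VPS72 (a subunit of the SWR1 remodeller), SPB4 (a helicase of ribosome assembly), DDC1 (a DNA damage checkpoint clamp), APM2 (an adaptin-like protein) and SYF1 (a splicing factor). Their K18ac-Input changes ran from 0.24 in APM2 to 0.74 in VPS72. In K18ac-Input all 11 were above 0, as were 85.0% of all 2246 genes. DDC1, which did not pass the minimum, was at -0.59 (-2.23 to 0.87) in K18ac-K18ac.

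**Figure D5:**
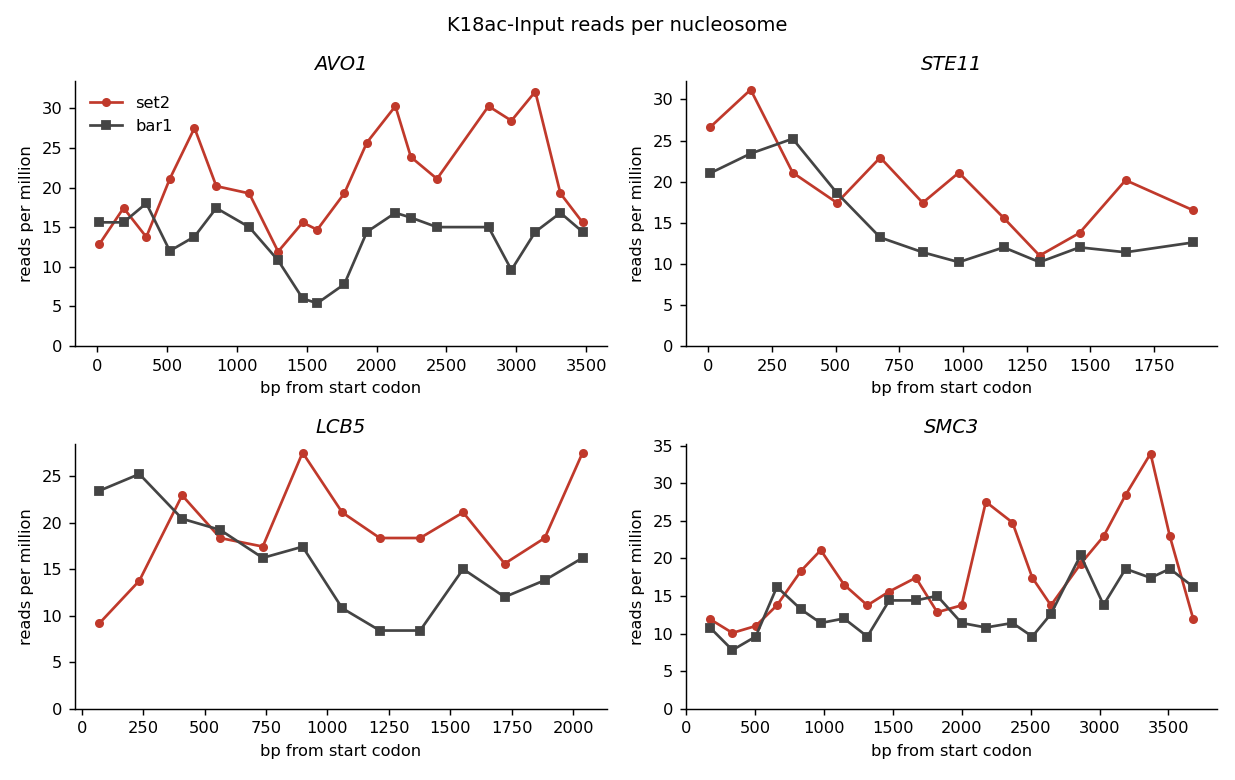
K18ac-Input CPM on each nucleosome of 4 genes from the internal promoter list, by distance of its centre from the start codon, in set2 (red circles) and bar1 (grey squares). In AVO1 and LCB5 bar1 dips to 5.40 and 8.41 CPM in mid-gene while set2 stays at or above 14.7 at those nucleosomes; single nucleosomes of these genes rest on 9 to 42 reads.

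Along AVO1 the gain was not even. The nucleosome at 1574 bp had 14.7 CPM in set2 (16 reads) and 5.40 in bar1 (9 reads), and that at 3136 bp had 32.1 in set2 (35 reads) and 14.4 in bar1 (24 reads). At 13 bp the order was turned, with 12.8 in set2 (14 reads) and 15.6 in bar1 (26 reads). In LCB5 the nucleosome at 72 bp had 9.17 in set2 (10 reads) and 23.4 in bar1 (39 reads), and that at 1213 bp had 18.3 in set2 (20 reads) and 8.41 in bar1 (14 reads). At these picked nucleosomes set2 was lower at the start of both genes and higher in mid-gene, on few reads and without intervals. The next nucleosome of AVO1, at 187 bp, went the other way, with 17.4 in set2 and 15.6 in bar1. So did the first nucleosomes of STE11 and SMC3, with 26.6 and 11.9 in set2 and 21.0 and 10.8 in bar1.

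Long genes were above the general level of gain. Of 117 genes of at least 5 kb, all passed the minimum; in the late zone 107 were above 0 in all 3 combinations, where 70.8% of all genes were, and 29 were at least 1.5-fold higher in all 3, where 9.3% were. Their median mean change was 0.77, where all genes had 0.62. In H3K36R against WT H3 their K18ac-Input median was 0.53, where all genes had 0.52. Long genes hold more reads, and the share of all genes called 1.5-fold higher rose with the read minimum, to 25 of 116 (21.6%) at 100 reads. The 117 long genes were not set against genes of matched depth. The 75 of them that carry a gene name had 0.79 and the 42 listed by locus name only had 0.75, of which 3 had a nucleosome counted in their first 500 bp. In the late zone 67 of the 75 and 40 of the 42 were above 0 in all 3 combinations, and 19 and 10 were at least 1.5-fold higher. TRA1 (YHR099W, chromosome VIII, 302761 to 313995), the large scaffold of the SAGA and NuA4 acetyltransferases, had 996, 823 and 1397 CPM over its coding region in set2, against 621, 351 and 920.2 in bar1. REA1, a ribosome assembly ATPase, had 1023, 786 and 1562 in set2 and 642, 454 and 901 in bar1, and DYN1, the dynein heavy chain, 1237, 823 and 1439 in set2 and 753, 448 and 1132 in bar1. Set2 was above bar1 in each pair of these 3 genes. The 4 single nucleosomes with the largest mean gain, of 109 with enough reads, lay in YER160C (2 nucleosomes), YER138C and YOR142W-B, between 1865 and 2331 bp from their start codons. These 3 genes have 1 and the same length of 5269 bp and no gene name in the table, and reads could be shared among such genes if their sequences are near-identical, which was not checked. Others of the 42, such as YMR045C and YJR027W, have this length too, so the 42 may not be separate cases.

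Over whole coding regions of at least 500 bp, 3447 genes passed the read minimum, with median changes of 0.06, 0.13 and -0.02. In all 3 combinations 0 genes (0%) were 2-fold higher and 0 (0%) 2-fold lower. At least 1.5-fold higher were 35 (1.02%) and at least 1.5-fold lower were 24 (0.696%). The same rule gave 33 of 3444 genes (0.958%) lower in bar1 than in WT H3, so the share of losses was no larger than between the wild types. Of the 24, 9 remained with size factors over nucleosomes and 7 with 5 reads added. The 5 reads were added before division by the library totals, which were smaller in set2, so this setting works against losses. With WT H3 as the reference 243 of 4761 genes were called, 4 of the 24 among them. None of the 24 had enough K18ac-K18ac reads to be tried at a minimum of 100, with at most 31 reads in set2 and 57 in bar1.

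The 24 genes called lower were short and poor in K36me3. They could pass the read minimum through bar1, where they were high: their median K18ac-K18ac count was 31 reads in bar1 and 13 in set2. Under 1500 bp were 23 of the 24 (95.8%), where 41.3% of all genes were, and their median length was 939 bp, where that of all genes was 1683 bp. Their median K36me3 level in WT H3, as the log2 ratio to H3, was -2.37, where all genes had 0.14. Within 20 kb of a chromosome end lay 8 of them (33.3%), where 3.16% of all genes lay. In H3K36R against WT H3, libraries that had no part in the choice, K18ac-Input was below 0 in 20 of the 24 (83.3%), where 41.8% of all genes were, and at least 1.5-fold lower in 37.5%, where 2.61% were. Genes under 1500 bp were lower as a class in that comparison, at -0.15. The 24 were not set against genes of matched length. Against WT H3, set2 was lower in K18ac-Input in 24 of 24, where 50.0% of all genes were, with a median of -0.55. Bar1 was above WT H3 in 17 of them (70.8%), where 43.4% of all genes were, with a median of 0.27. The set2 and bar1 libraries in these last counts also chose the 24 genes, so neither count is independent of the choice.

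The 8 genes near chromosome ends were of few kinds. ERR1, ERR2 and ERR3 encode enolase-related proteins, THI5, THI11, THI12 and THI13 make the pyrimidine part of thiamine, and SNZ2 belongs to a family for vitamin B6 synthesis. ERR3 (YMR323W, chromosome XIII, 920088 to 921401), with the lowest mean of the 24, had 71.5, 49.2 and 31.1 CPM in set2, against 133, 236 and 47.8 in bar1. Its changes were -0.89 (-1.28 to -0.51), -2.19 (-3.57 to -1.14) and -0.60 (-1.39 to 0.10), and the last interval includes 0. THI13 (YDL244W, chromosome IV, 16204 to 17226) had 113, 135 and 31.1 in set2 and 245, 333 and 50.4 in bar1. Its mean change of -1.02 against bar1 turned to 0.62 against WT H3, while in H3K36R against WT H3 it was at -1.23 in K18ac-Input. Against WT H3 the mean changes of ERR3, ERR2 and ERR1 were -0.15, -0.020 and -0.090, where against bar1 they were -1.23, -1.15 and -1.09. The ERR genes and the THI5 family are near-identical copies, so their reads are uncertain and they are not separate cases.

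Away from chromosome ends, DMC1 (YER179W, chromosome V, 548421 to 549517), the recombinase of meiosis, had 70.6, 79.9 and 33.8 CPM in set2, against 152, 218 and 56.4 in bar1. Its changes were -1.10 (-1.49 to -0.73), -1.41 (-2.49 to -0.50) and -0.72 (-1.46 to -0.05), and it was at -0.99 in H3K36R against WT H3. COA1 (YIL157C, chromosome IX, 46949 to 47542), an assembly factor of cytochrome oxidase, had 53.2, 43.0 and 43.3 in set2 and 106, 151.2 and 76.9 in bar1. SRB2 (YHR041C, chromosome VIII, 189131 to 189864), a Mediator subunit, had 66.0, 61.4 and 46.0 in set2 and 127, 199.6 and 79.5 in bar1. Set2 was below bar1 in each pair of these 3 genes, as their choice required. Against WT H3 the mean change was -0.62 in DMC1, -0.19 in COA1 and -0.57 in SRB2, where against bar1 it was -1.08, -1.18 and -1.12. TGL2, a lipase, NAT5, of the NatA acetyltransferase, GCV3, of the glycine cleavage complex, VLD1, of a vacuolar ubiquitin ligase, and GUK1, guanylate kinase, completed the 12 with the largest loss, with mean changes from -1.21 (VLD1) to -1.01 (GUK1). Against WT H3 these means were -1.29 in TGL2, -1.04 in VLD1, -0.77 in GUK1, -0.70 in GCV3 and -0.12 in NAT5. In H3K36R against WT H3 the K18ac-Input change was -0.69 in TGL2, and between -0.18 and -0.08 in VLD1, COA1, SRB2, NAT5, GCV3 and GUK1. Just inside the limit lay OLE1, at -0.59 in its weakest combination, and just outside ASP3-1, GRX7 and RPL22A, at -0.58 each.

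In the late zone the 3 genes at least 1.5-fold lower were GEX2, CYB2 and PLM2, named here because they were so few. GEX2 (YKR106W, chromosome XI, 661442 to 663289), a glutathione exchanger close to a chromosome end, had 46.8, 36.9 and 14.9 CPM in set2, against 78.0, 175 and 48.7 in bar1. It was also lower in H3K36R than in WT H3, with a log2 change of -1.93 in K18ac-Input. CYB2 (YML054C, chromosome XIII, 165533 to 167308), lactate dehydrogenase of mitochondria, had 96.3, 43.0 and 82.5 in set2 and 169, 188 and 126 in bar1, and was at 0.39 in H3K36R against WT H3.

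Other gene groups were read from their lists. Of 138 ribosomal protein genes, 113 were at least 500 bp long, introns included, and had a nucleosome counted, and 68 passed the minimum. Over the whole coding region 42 of the 68 were below 0 in all 3 combinations and 0 above, where 22.3% of all genes were below and 29.4% above. Among them 1 (RPL1B) was 1.5-fold lower in all 3, and the list had a median mean change of -0.40, where all genes had 0.03. RPL21A had 127, 30.7 and 96.0 CPM in set2 and 158, 157 and 101 in bar1, and like many of these genes has a near-identical copy. Ribosomal protein genes are mostly short, and the list was not set against genes of matched length.

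Of 24 genes of meiosis and sporulation, which are silent in growing cells, 15 passed over the whole coding region, with 7 below 0 in all 3 combinations, 2 above and a median of -0.29. The shares over all genes were the 22.3% and 29.4% given above, with a median of 0.03. In the late zone 8 passed, with a median of -0.18, where all genes had 0.62. SPO22, which acts in meiotic crossing over, had 313, 319 and 245 CPM in set2 and 264, 181 and 257 in bar1, and ZIP1, of the synaptonemal complex, 247, 147 and 199 in set2 and 265, 175 and 239 in bar1. The genes of this list thus gained and lost, with DMC1 the only member 1.5-fold lower in all 3. Among genes within 20 kb of a chromosome end, 42 passed in the late zone, with 13 above 0 and 11 below 0 in all 3 combinations and a median of 0.02.

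In the late zone, 7 of 18 heat shock and stress genes passed, with a median of 0.15, and 4 of 9 genes of the SAGA and NuA4 acetyltransferases, with a median of 0.91 and 2 at least 1.5-fold higher in all 3. All genes had a median of 0.62 there, and 9.3% were 1.5-fold higher. Over whole coding regions 7 of the acetyltransferase genes passed, with a median of 0.11, 2 above 0 and 3 below 0 in all 3 combinations. Over whole coding regions 10 of 16 glycolysis genes passed with a median of -0.12, and 5 of 8 galactose genes with -0.23. SPT7, a SAGA subunit, had 496, 405 and 519 CPM in set2 and 251, 212 and 343 in bar1. Of Set2's partners in Rpd3S, SIN3 had 378, 184 and 545 in set2 and 231, 169 and 349 in bar1, and RPD3, the deacetylase, 121, 117 and 150.1 in set2 and 116, 145 and 135 in bar1. SPT7 and SIN3 were higher in set2 in each pair, and RPD3 differed in sign between pairs.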

How the data were processed

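Chromatin of formaldehyde-fixed cells was digested with micrococcal nuclease, per the labels' protocols. What the authors deposited are raw counts for each nucleosome in each library. The submitters' processing notes name Bowtie2 and sacCer3; the Bowtie2 version and the handling of duplicates and barcodes are not given in the sources used here, and kept duplicates would make counting intervals too narrow.

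Each library formed a group of 1, from its title and characteristics. Nucleosomes were placed by their centre in protein-coding genes of the RefSeq R64 table, the same build, with strand from the systematic name. Gene lengths and coding regions are spans from the first to the last base of a gene, introns included. Distances to chromosome ends were taken to the outermost nucleosome. Zone intervals are Wilson or exact conditional binomial. Gene changes are log2((reads + 0.5)/library total), set2 minus bar1, with at least 30 reads over both strains in each combination (Python 3.11.15, numpy 2.4.6, pandas 2.3.3, scipy 1.17.1). The 2-fold calls were checked on simulated counts with larger planted changes and counting noise only, and the zone values on a planted 2-fold change. The 1.5-fold calls were not checked in this way.

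The members and lists were chosen with earlier results of these data known. The named genes were to be the 12 highest and 12 lowest of those called at 2-fold. As 0 were, the rule was applied at 1.5-fold, after the values had been seen. No sequences are shown, as none were used here.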

Additional observations from a re-analysis of the deposited data

Results flagged for a closer look

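A pair of set2 and bar1 libraries moved against the 3 K18ac combinations, in which the late to 5-prime log2 ratio was higher in set2. In K79me3-Input the ratio was 1.76 in set2 and 1.89 in bar1, a difference of -0.12, on 715681 reads in set2 and 10044 in bar1. In K36me3-Input it was 0.35 in set2 and 2.72 in bar1, a difference of -2.37, on 24149 and 348217 reads. Set2 is the enzyme that makes K36me3, so this difference cannot be read as a shift of the mark along genes. The set2 library had no read on 71.1% of nucleosomes, and that of bar1 had none on 8.32%. Each value is 1 library against 1, and the difference from the K18ac combinations was not tested.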

How the results depend on the processing

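No paired analysis was possible because each strain and combination had 1 library and the titles carry no replicate numbers. Values are for K18ac-Input, K18ac-K18ac and K18ac-K79me3 in turn. The late to 5-prime difference was 0.82, 1.36 and 0.53 with a late zone from 1500 bp. It was 0.84, 1.45 and 0.56 when only genes from 2500 bp up were taken, and 1.18, 1.18 and 1.00 with WT H3 as the reference. The between-gene change was -0.033, -0.063 and, reversed, 0.17 with WT H3 as the reference. Without the top 1% of nucleosomes both kinds of value stayed within their counting intervals, as did the between-gene change without 20 kb at chromosome ends. Genes at least 2-fold higher in the late zone numbered 0 of 2038 at a minimum of 10 reads, 1 of 989 with size factors, 92 of 989 at 1.5-fold and 52 of 2081 against WT H3. Without K18ac-Input, K18ac-K18ac or K18ac-K79me3 they numbered 1 of 989, 3 of 2237 and 23 of 989. Genes at least 2-fold lower numbered 4 of 4936 at a minimum of 10 reads, 0 of 3447 with size factors, 24 of 3447 at 1.5-fold and 35 of 4761 against WT H3. Without each combination in turn they numbered 7 of 3447, 8 of 5023 and 7 of 3447. A minimum of 100 reads or 5 added reads could not raise these counts above 0. Size factors raised set2 over bar1 by 0.03, 0.02 and 0.10 on the log2 scale. Of the 24 named genes, THI13 reversed against WT H3, to 0.62, and 14 others moved beyond their counting interval without a change of sign, while with size factors or 5 reads added all 24 stayed within it. Added reads enter before division by library totals, so in K18ac-Input and K18ac-K79me3 they draw low counts toward a higher value in set2. The 1.5-fold counts under the other settings, and the division of long genes by name, were added after seeing the data. In set2 and bar1 depth limits K18ac-K18ac most: its median of 46 reads per late zone over both strains carries a counting error of 0.45 (log2). Of the WT H3 libraries of the 3 combinations, K18ac-K79me3 was the shallowest, with 85577 reads.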
